A study of Arabidopsis thaliana with 12 samples.

Results

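The question here is whether 1 h of light changed the same genes, by the same amount, in rb10 seedlings as in wild type (WT) seedlings of Arabidopsis thaliana. Each member is a probe set paired with a single gene, and there are 16722 of them among the 38408 probe sets of the arrays. For each, the light effect of rb10 (light minus dark) was set against the light effect of WT (light minus dark), and the difference of these differences in log2 signal is called the interaction. A negative interaction means a smaller rise, or a larger fall, in rb10. The pairing alone set the members, without use of their values. This choice, and that of the lists and tests below, was made with earlier results of these data known. All 12 arrays entered, in 4 groups of 3: WT after 5 days in the dark, WT after the same 5 days followed by 1 h of white light, rb10 in the dark, and rb10 with the 1 h of light. Every group had the Col-0 background, diluted MS medium with no added sucrose, no other treatment, and RNA from pools of whole seedlings. The labels give rb10 only as a name. As far as the study is known, rb10 carries a mutated RAPTOR1B, which the annotation lists as RAPTOR1 (AT3G08850). One mutant line was used, so effects of the mutated gene and of anything else in that line cannot be told apart.

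RAPTOR binds the substrates of TOR, a protein kinase that drives growth and protein synthesis when sugar, light and hormones permit. Seedlings in darkness live on their reserves and elongate. Their first light switches on photomorphogenesis through phytochromes, cryptochromes and the transcription factor HY5 with its relative HYH, while PIF transcription factors, which drive elongation in the dark, are broken down. Dark-grown seedlings also gather a chlorophyll precursor, which on illumination can form singlet oxygen, and genes of chaperones, calcium signalling and zinc finger factors answer many such stresses.

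RAPTOR1 read 11.84, 11.66 and 11.63 in dark WT, 11.62, 11.69 and 11.58 in illuminated WT, 11.06, 11.08 and 11.60 in dark rb10 and 10.90, 10.89 and 11.13 in illuminated rb10 (log2 signal, replicates 1 to 3 in that order here and below; dark WT and illuminated WT stand for the WT groups without and with the 1 h of light, and likewise for rb10). Among the rb10 dark arrays the third stood apart, at the level of the WT arrays, and it is called the doubted array below. Over all members, 1 was called between the genotypes in the dark with all 12 arrays, and 1683 without that array. The array was kept under its label, and results that rest on it are given with and without it. Where the probes of RAPTOR1 lie relative to the mutation is not given in the sources used here. The RAPTOR1 interaction was -0.19 (SE 0.21, adjusted p = 0.778), and that of RAPTOR2, the related gene, 0.11 (SE 0.18, adjusted p = 0.873). Against a median of 7.09 over all members, 3 genes of green tissue (LHB1B2, RCA and LHCB4.1) read 9.40 to 11.55, 2 root hair genes 4.85 to 9.78 and 6 pollen genes at most 5.36, and no gene of endodermis or seed was measured, that is, paired with a probe set. None of these markers was called in the interaction (limma, none at an unadjusted p under 0.05, and none by the ordinary linear model). In whole seedlings, fewer cells of a type and less RNA per cell cannot be told apart.

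In a limma fit of the 4 group means the interaction passed a Benjamini-Hochberg adjusted p under 0.05, called below, for 371 members (2.22%), of which 88 were higher in rb10 (0.526%) and 283 lower (1.69%). Leaving out the doubted array gave 386 (2.31%), with 102 higher (0.61%) and 284 lower (1.7%). The same 306 members passed with and without it, 68 higher and 238 lower, and no member called in either fit changed sign. The 65 calls lost without it had adjusted p-values of 0.0515 to 0.0921 there, and the 80 calls gained had 0.0507 to 0.806 with it. The lower count fell most, to 169 without WT light replicate 1 and to 184 without rb10 light replicate 2. The higher count fell to 35 and 45 in the same fits, and to between 48 and 58 without any one of WT dark replicates 1, 2 and 3, WT light replicate 3, and rb10 light replicates 1 and 3. Over all members the median interaction was 0.0146 and the median standard error (SE) 0.247. The labels call the samples biological replicates, and p-values speak for the spread among those samples alone.

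Light alone changed 1154 members in WT (6.9%), 780 up (4.66%) and 374 down (2.24%), and 1205 in rb10 (7.21%), 581 up (3.47%) and 624 down (3.73%). Of the 780 rises of WT, 213 were weaker in rb10, meaning that the interaction was called against the WT effect. A further 10 were stronger in rb10, and 151 were kept, meaning that both genotypes rose, the interaction was not called and its 95% interval lay within 1 log2 unit of 0. A kept response may still differ in size between the genotypes. For 83 rises called in both genotypes that interval was too wide to call them kept, and for 323 neither the rb10 rise nor the interaction was called. Of the 374 falls of WT, 31 were weaker in rb10, 8 were stronger, 89 were kept, 36 could not be decided, and for 210 neither the rb10 fall nor the interaction was called. In addition 46 rises and 54 falls were gained, that is called in rb10 and in the interaction but not in WT, and 9 members with a called interaction fell into none of these classes. For another 242 rises and 431 falls called in rb10, neither the WT effect nor the interaction was called. Weaker responses were mostly rises (213 of 244), while gained responses were split between both directions.

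Without the doubted array light changed 1471 members in WT (8.8%), 896 up (5.36%) and 575 down (3.44%), and 1069 in rb10 (6.39%), 542 up (3.24%) and 527 down (3.15%). The WT light effects themselves are the same in both fits, since the array left out is of rb10. For WT only the spread estimated over all groups, and the tests built on it, differ. The classes then held 252 weaker (211 rises and 41 falls), 95 gained (42 rises and 53 falls), 29 stronger and 294 kept members. Membership held for 203 of the 244 weaker, 74 of the 100 gained, 14 of the 18 stronger and 192 of the 240 kept members. Among the 213 weaker rises the median level went from 7.28 to 9.50 with light in WT, and from 7.44 to 7.91 in rb10 without the doubted array. The median genotype difference of these members (rb10 minus WT) was 0.04 in the dark and -1.45 after light. Among the 54 gained falls it was -0.04 in the dark and -1.32 after light, and among the 46 gained rises 0.18 and 1.33. These levels belong to the contrast that defined the classes and are given as a description.

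**Figure D1:**
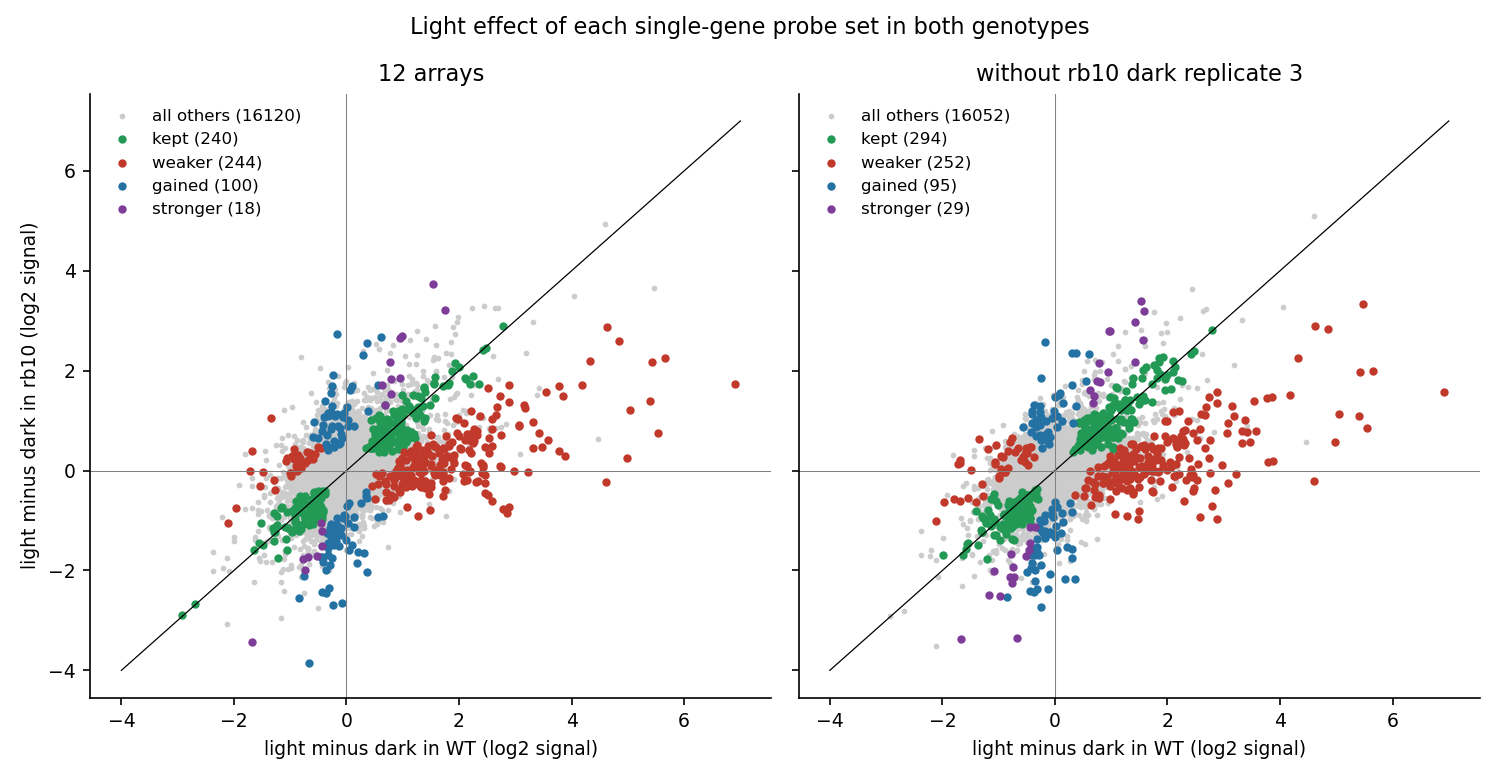
Light effect in WT (x axis, log2 signal) against light effect in rb10 (y axis, log2 signal) for every single-gene probe set, with all 12 arrays (left) and without rb10 dark replicate 3 (right); colours mark the classes and the line is equality. Weaker members, 244 on the left and 252 on the right, lie mainly at large WT rises near or below the middle of the plot, and the 240 and 294 kept members lie along the line.

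The largest weaker rises were those of small heat shock proteins, chaperones that hold unfolding proteins. Of 12 measured genes 11 rose with light in WT and 8 in rb10 with 12 arrays, and 7 in rb10 without the doubted array. The interaction was lower for 8 and higher for 1, both with and without that array. Their median light effect was 4.62 in WT and 1.55 in rb10, and their median interaction -3.34, against 0.01 over all members. With 12 arrays 4.66% of all members rose in WT, 3.47% rose in rb10 and 1.69% had a lower interaction. The counts of this list and of those below stand beside these shares. AT1G54050 read 4.1, 3.95 and 3.96 in dark WT, 11.22, 10.77 and 10.75 in illuminated WT, 4.77, 4.78 and 4.28 in dark rb10 and 7.02, 6.26 and 5.76 in illuminated rb10. Every WT light array stood at least 3 log2 units above every rb10 light array, while rb10 after light was still above rb10 in the dark. The rise was 6.91 (SE 0.27, adjusted p = 3.26e-07) in WT and 1.74 (SE 0.27, adjusted p = 0.0029) in rb10, and the interaction -5.18 (SE 0.39, adjusted p = 0.000286), or -5.34 (SE 0.40, adjusted p = 0.000626) without the doubted array.

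Of the 8 small heat shock protein genes with a lower interaction, 3 had no called rise in rb10. AT1G52560 read 5.00, 5.84 and 5.30 in dark WT, 10.40, 9.90 and 9.66 in illuminated WT, 5.06, 6.21 and 5.68 in dark rb10 and 6.31, 5.57 and 4.39 in illuminated rb10. Its rb10 light and dark arrays overlapped, and the interaction was -4.84 (SE 0.64, adjusted p = 0.00363). AT1G53540 read 5.47, 5.45 and 5.90 in dark WT, 10.98, 10.52 and 10.28 in illuminated WT, 4.83, 4.86 and 5.79 in dark rb10 and 5.69, 5.75 and 4.83 in illuminated rb10, again with overlap between the rb10 groups, and the interaction was -4.72 (SE 0.44, adjusted p = 0.000718). For AT5G37670 the rise was 3.88 in WT and 0.29 in rb10, with an interaction of -3.59 (SE 0.39, adjusted p = 0.00181). Without the doubted array the rb10 light effects of the 3 genes were -0.22 (SE 0.53, adjusted p = 0.896), 0.58 (SE 0.29, adjusted p = 0.35) and 0.20 (SE 0.31, adjusted p = 0.828).

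Other members of the family rose in both genotypes, but less in rb10. ATHSP22.0 (AT4G10250), of the endomembrane system, rose by 5.40 in WT and 1.40 in rb10, with an interaction of -4.0 (SE 0.52, adjusted p = 0.00361), and without the doubted array its rb10 effect of 1.09 (SE 0.37, adjusted p = 0.136) was no longer called. AT1G07400 rose by 5.43 and 2.17 (interaction -3.26, SE 0.31, adjusted p = 0.000718) and AT1G59860 by 5.66 and 2.25 (interaction -3.41, SE 0.52, adjusted p = 0.00788). AT5G51440 read 6.96, 6.89 and 6.93 in dark WT, 11.86, 11.46 and 11.35 in illuminated WT, 7.30, 7.01 and 7.25 in dark rb10 and 10.29, 9.96 and 9.94 in illuminated rb10. It kept a large rise in rb10, 2.87 (SE 0.15, adjusted p = 5.29e-06), below that of WT, 4.63 (SE 0.15, adjusted p = 1.25e-07), with an interaction of -1.76 (SE 0.21, adjusted p = 0.00272). Several of these genes are close copies of each other, so a probe set may also read its relatives.

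AT4G21870, the 1 small heat shock protein gene with a higher interaction, was named after its values were seen. It read 9.31, 9.53 and 9.91 in dark WT, 10.19, 10.22 and 10.24 in illuminated WT, 9.86, 9.85 and 9.56 in dark rb10 and 11.54, 11.46 and 11.40 in illuminated rb10. The rb10 light arrays stood above all others, and the rise was 0.63 in WT and 1.71 in rb10, an interaction of 1.08 (SE 0.21, adjusted p = 0.0241) and of 0.98 (SE 0.21, adjusted p = 0.0416) without the doubted array. AT2G19310 was kept, with rises of 2.19 and 1.74 and an interaction of -0.46 (SE 0.24, adjusted p = 0.481). Within the family the calls thus went both ways. AT1G59865, the next gene after AT1G59860 in the annotation and of no listed function, rose by 5.04 in WT and 1.22 in rb10, with an interaction of -3.82 (SE 0.43, adjusted p = 0.0019).

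Of 46 listed large chaperones, co-chaperones and heat shock factors 14 were measured. Of these, 13 rose in WT and 10 in rb10, and 6 had a lower interaction, with none higher. The median light effect was 2.47 in WT and 1.21 in rb10. Fes1A, which releases nucleotide from HSP70, read 6.31, 6.66 and 6.10 in dark WT, 10.41, 10.01 and 10.19 in illuminated WT, 6.41, 6.42 and 6.35 in dark rb10 and 8.36, 7.53 and 7.79 in illuminated rb10. The rb10 light arrays lay between the dark arrays and the WT light arrays, with an interaction of -2.35 (SE 0.29, adjusted p = 0.00292). Hsp70-2, a cytosolic HSP70, read 6.32, 6.42 and 6.43 in dark WT, 9.12, 8.78 and 9.05 in illuminated WT, 5.73, 5.59 and 5.99 in dark rb10 and 6.70, 6.77 and 6.94 in illuminated rb10. Here the rb10 groups did not overlap, and the rise was 1.03 in rb10 against 2.59 in WT, an interaction of -1.56 (SE 0.19, adjusted p = 0.00272).

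AT1G66080, which resembles the factor that carries HSP70 into the nucleus after heat, rose by 4.18 in WT and 1.72 in rb10 (interaction -2.46, SE 0.39, adjusted p = 0.00899). AT2G20560, of the DnaJ co-chaperones, rose by 2.88 and 1.38, with an interaction of -1.50 (SE 0.28, adjusted p = 0.0217) that was called in 8 of the 12 fits leaving out 1 array. SGT1A, a partner of HSP90, rose by 1.95 and 1.05, with an interaction of -0.90 (SE 0.18, adjusted p = 0.0263), called in 4 of those 12 fits. The DnaJ gene AT1G71000 was called in 3 of those 12, with an interaction of -2.08 (SE 0.42, adjusted p = 0.03) and -1.92 (SE 0.44, adjusted p = 0.061) without the doubted array. AT5G48570, a heat-induced prolyl isomerase gene named after its values were seen, passed without that array, with an interaction of -2.14 (SE 0.43, adjusted p = 0.0327), where all 12 arrays gave -1.82 (SE 0.47, adjusted p = 0.0874).

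Part of the chaperone response was kept. AT3G09440, which encodes another cytosolic HSP70, read 9.93, 9.76 and 9.81 in dark WT, 12.36, 12.17 and 12.06 in illuminated WT, 9.88, 10.12 and 9.82 in dark rb10 and 11.75, 11.58 and 11.69 in illuminated rb10. Light and dark arrays stood apart in both genotypes, with rises of 2.36 in WT and 1.74 in rb10. It met the definition of kept with 12 arrays, but its interval, -0.99 to -0.26, left out 0, and without the doubted array that interval passed 1 log2 unit. Cpn60beta2, a chaperonin of the plastid, rose by 2.0 and 2.07 with an interaction of 0.06 (SE 0.28, adjusted p = 0.959), and was kept with and without that array.

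In the calcium, zinc finger and CYSTM lists most of the weaker rises had no called counterpart in rb10. Of 34 measured calmodulin-like calcium sensors 7 rose in WT and none in rb10, against 4.66% and 3.47% of all members. None of 34 lies near that second share, and without the doubted array 1 rose in rb10. The interaction was lower for 5, against 1.69% of all members. CML38 read 4.32, 5.17 and 4.50 in dark WT, 7.82, 7.22 and 7.50 in illuminated WT, 3.78, 4.34 and 5.44 in dark rb10 and 3.73, 3.88 and 3.41 in illuminated rb10. Its rb10 light arrays lay below every WT array and overlapped the rb10 dark arrays, of which the third read highest. The WT rise was 2.85 (SE 0.37, adjusted p = 0.000657), the rb10 effect -0.85 (SE 0.37, adjusted p = 0.234) and the interaction -3.70 (SE 0.52, adjusted p = 0.0055), or -3.24 (SE 0.38, adjusted p = 0.00505) without the doubted array. CML37 read 4.26, 4.01 and 4.37 in dark WT, 7.87, 7.25 and 7.49 in illuminated WT, 4.21, 3.52 and 4.18 in dark rb10 and 4.45, 4.52 and 4.33 in illuminated rb10. The WT light arrays stood far above the rest, the rb10 light arrays lay just above the rb10 dark arrays with an effect of 0.46 (SE 0.20, adjusted p = 0.24), and the interaction was -2.86 (SE 0.29, adjusted p = 0.00105).

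AT3G29000, of the same family, rose by 3.58 in WT, had a light effect of 0.62 (SE 0.20, adjusted p = 0.0983) in rb10, and gave an interaction of -2.96 (SE 0.28, adjusted p = 0.000718). Without the doubted array its rb10 effect was 0.79 (SE 0.19, adjusted p = 0.0386). AT1G21550 rose by 2.3 in WT against -0.22 (SE 0.33, adjusted p = 0.787) in rb10, an interaction of -2.52 (SE 0.47, adjusted p = 0.0207) called in 8 of 12 fits leaving out 1 array. AT3G25600 rose by 1.24 in WT against 0.29 (SE 0.12, adjusted p = 0.208) in rb10, an interaction of -0.96 (SE 0.17, adjusted p = 0.0158). CML42, named after its values were seen, was called without the doubted array only, at -2.07 (SE 0.40, adjusted p = 0.0296) and not -1.73 (SE 0.47, adjusted p = 0.107), so that 6 sensors were lower there. The median interaction of the list was -0.23, and most members had no called light effect in either genotype.

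Of 9 CYSTM genes, which encode short cysteine-rich membrane proteins, 4 rose in WT and none in rb10, and the same 4 had a lower interaction. Over all members the shares were 4.66%, 3.47% and 1.69%, so none of 9 in rb10 lies near the share there. AT2G32200 read 4.80, 4.82 and 5.28 in dark WT, 10.89, 10.35 and 10.28 in illuminated WT, 5.23, 5.20 and 5.52 in dark rb10 and 6.31, 6.15 and 5.75 in illuminated rb10. Its rb10 light arrays stood just above the rb10 dark arrays and far below the WT light arrays. The rise was 5.54 (SE 0.21, adjusted p = 3.04e-07) in WT, the rb10 effect 0.75 (SE 0.21, adjusted p = 0.0549) and the interaction -4.79 (SE 0.29, adjusted p = 0.000109), the smallest adjusted p of all members. Its neighbours AT2G32190 and AT2G32210 gave -3.00 (SE 0.33, adjusted p = 0.00188) and -2.22 (SE 0.26, adjusted p = 0.00227). These 3 neighbours resemble each other, and probes may not fully separate them. AT1G56060 gave -2.19 (SE 0.44, adjusted p = 0.0268) and was not called without the doubted array (-2.10, SE 0.48, adjusted p = 0.0558).

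Among 12 zinc finger factors of the ZAT type, 3 had a lower interaction and the rest did not pass. STZ (AT1G27730), a repressor induced by many stresses, read 8.45, 8.51 and 8.04 in dark WT, 11.58, 11.33 and 11.55 in illuminated WT, 8.15, 8.28 and 8.15 in dark rb10 and 9.34, 9.62 and 9.57 in illuminated rb10. All 3 rb10 light arrays stood above the rb10 dark arrays and below the WT light arrays, with rises of 3.15 in WT and 1.32 in rb10 and an interaction of -1.83 (SE 0.20, adjusted p = 0.00181). AT3G46080 read 7.55, 7.04 and 6.71 in dark WT, 10.49, 9.86 and 9.58 in illuminated WT, 7.88, 7.40 and 6.92 in dark rb10 and 6.47, 6.23 and 7.35 in illuminated rb10. The WT light arrays stood above all others, and the interaction was -3.60 (SE 0.50, adjusted p = 0.00523). ZAT7, a near neighbour of it on the chromosome, had an interaction of -2.54 (SE 0.31, adjusted p = 0.00284).

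Of 20 listed genes linked to singlet oxygen or oxidative stress 5 were measured. All of these rose in WT and 1 in rb10, namely STZ, which is also in the ZAT list. AT3G28580, whose AAA-ATPase transcript serves to mark singlet oxygen, read 5.71, 5.96 and 6.39 in dark WT, 9.01, 8.46 and 8.16 in illuminated WT, 5.07, 5.35 and 6.11 in dark rb10 and 4.97, 5.35 and 4.77 in illuminated rb10. Its rb10 light arrays lay below all WT arrays, and the interaction was -3.00 (SE 0.42, adjusted p = 0.0055), or -2.70 (SE 0.37, adjusted p = 0.00738) without the doubted array. AT1G05575 gave -2.29 (SE 0.34, adjusted p = 0.00699). AT5G64870, of the flotillins, membrane scaffold proteins, gave -1.45 (SE 0.32, adjusted p = 0.047) but passed in 1 of the 12 fits leaving out 1 array, with adjusted p = 0.0588 without the doubted one.

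Of 12 measured plant U-box ubiquitin ligase genes 7 rose in WT, 2 rose and 1 fell in rb10, and the interaction was lower for 3. Over all members these shares were 4.66%, 3.47%, 3.73% and 1.69%. PUB23, which limits immune signalling, read 7.69, 7.82 and 8.58 in dark WT, 10.97, 10.70 and 10.65 in illuminated WT, 8.48, 8.55 and 8.25 in dark rb10 and 8.99, 9.13 and 9.28 in illuminated rb10. The rb10 light arrays stood above the dark ones without the change passing the test (0.71, SE 0.21, adjusted p = 0.0735), and the interaction was -2.04 (SE 0.30, adjusted p = 0.00642). PUB54 read 3.75, 4.17 and 3.46 in dark WT, 5.33, 5.23 and 5.29 in illuminated WT, 4.65, 4.37 and 4.42 in dark rb10 and 3.66, 3.78 and 3.65 in illuminated rb10. It went in opposite directions, up in WT (1.49, SE 0.16, adjusted p = 0.000177) and down in rb10 (-0.78, SE 0.16, adjusted p = 0.0131), an interaction of -2.27 (SE 0.23, adjusted p = 0.000968) and of -2.3 (SE 0.25, adjusted p = 0.0031) without the doubted array. AT5G37490 gave -1.55 (SE 0.29, adjusted p = 0.0197) and was called in 7 of 12 fits leaving out 1 array.

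The counts of lower calls in the small heat shock, large chaperone, CYSTM, ZAT and U-box lists were the same when arrays were set to equal medians and after a second quantile normalization. In both settings the calcium list had 6, the singlet oxygen list 3, the starvation list described below 3 instead of 2 and the glutaredoxins 2 instead of 1. By the ordinary linear model, interaction calls in either direction were fewer in most of the stress lists. They numbered 8 for small heat shock, 5 for large chaperone, 4 for calcium and 3 for CYSTM genes. The ZAT list had 3, the U-box list 2 and the singlet oxygen list 3. Of 7 measured WRKY factors 2 had a lower interaction, WRKY6 as a smaller rise (1.26 in WT, 0.51 in rb10, -0.75, SE 0.16, adjusted p = 0.0401, and -0.66, SE 0.15, adjusted p = 0.0603 without the doubted array) and WRKY22 as a fall described below. Of 55 measured UDP-sugar transferases 3 had a lower and 1 a higher interaction, against 1.69% and 0.526% of all members. UGT73B5 and UGT73B3, glucosyltransferases of small molecules and weaker rises, gave -1.08 (SE 0.17, adjusted p = 0.00915) and -0.74 (SE 0.15, adjusted p = 0.032). The second was called in 1 of 12 fits leaving out 1 array. Among 7 measured class III peroxidases Prx37, of the cell wall, was the 1 called and rose by 1.08 in WT and not in rb10 (0.00), with an interaction of -1.08 (SE 0.18, adjusted p = 0.0122).

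**Figure D2:**
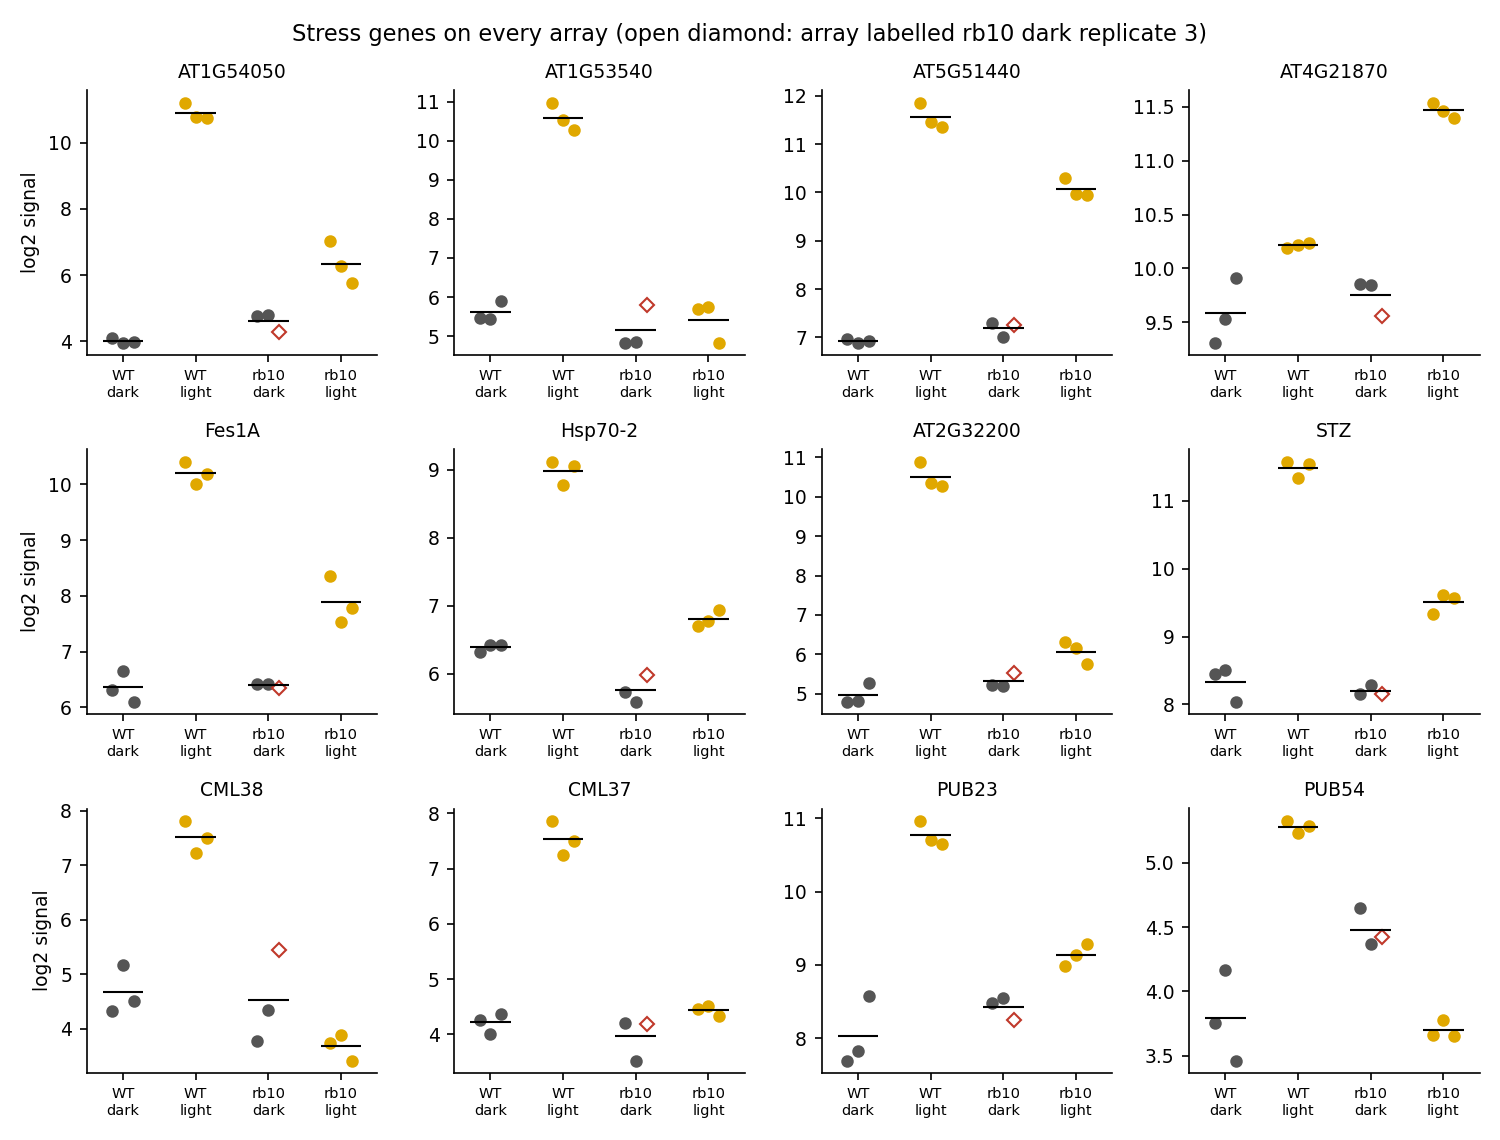
Log2 signal (y axis) on each of the 12 arrays for 12 stress genes, by group (x axis); points are arrays, bars are group means, and the open diamond is the array labelled rb10 dark replicate 3. In all but AT4G21870 the WT light arrays stand highest, and in AT4G21870 the rb10 light arrays do.

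Falls that weakened in rb10 were fewer, 31 with 12 arrays and 41 without the doubted one. AT1G76240, which had the largest interaction among those not reversed in rb10, read 8.94, 8.88 and 9.01 in dark WT, 6.97, 7.06 and 7.75 in illuminated WT, 9.88, 10.05 and 9.22 in dark rb10 and 10.23, 9.99 and 10.13 in illuminated rb10. Its fall was called in WT alone, the rb10 dark and light arrays overlapped with the doubted array apart at the WT dark level, and the interaction was 2.09 (SE 0.33, adjusted p = 0.00939), or 1.84 (SE 0.28, adjusted p = 0.0105) without that array. AT4G14819 fell by 1.72 on the log2 scale in WT, with an rb10 effect of 0.00 and an interaction of 1.72 (SE 0.34, adjusted p = 0.0263), called in 4 of 12 fits leaving out 1 array. AT4G14480, which the annotation also lists as BLUS1, a kinase of blue light signalling to stomata, was named after its values were seen, with light effects of -1.97 in WT and -0.74 in rb10 and an interaction of 1.23 (SE 0.27, adjusted p = 0.0465).

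SPCH, the factor that starts the stomatal lineage, read 7.15, 6.81 and 7.31 in dark WT, 6.37, 6.17 and 5.93 in illuminated WT, 6.90, 7.35 and 6.62 in dark rb10 and 7.34, 7.63 and 7.21 in illuminated rb10. It fell in WT (-0.93, SE 0.21, adjusted p = 0.0194), while in rb10 the effect was 0.44 (SE 0.21, adjusted p = 0.272), and the interaction was 1.37 (SE 0.29, adjusted p = 0.0377). This call was lost without the doubted array (1.2, SE 0.28, adjusted p = 0.063) and after a second quantile normalization, and held in 2 of 12 fits leaving out 1 array. The ordinary linear model did not call SPCH. Of the other measured genes of the stomatal lineage, MUTE, FMA and STOMAGEN, none was called in the interaction. AT1G08590, a receptor-like kinase gene named after its values were seen, is counted with 2 probe sets among the 371, both weaker falls, with interactions of 0.99 and 1.32.

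Enzymes of cell wall loosening passed in the fit without the doubted array. Of 28 measured expansins and xyloglucan-modifying enzymes (XTH) none passed with 12 arrays, although 9 had an unadjusted p under 0.05 (limma), and none passed in the ordinary linear model. Without that array XTH18 (-1.39, SE 0.21, adjusted p = 0.0101) and XTH19 (-1.33, SE 0.16, adjusted p = 0.00572) were lower, and XTH33 (0.98, SE 0.17, adjusted p = 0.0197) and EXPA8 (1.23, SE 0.23, adjusted p = 0.0233) were higher. XTH19, XTH33 and EXPA8 were named after their values were seen. XTH18 read 9.66, 9.70 and 9.91 in dark WT, 11.16, 10.87 and 10.91 in illuminated WT, 10.57, 10.53 and 9.82 in dark rb10 and 10.59, 10.13 and 10.43 in illuminated rb10. The doubted array stood apart from the other pair, near the WT dark arrays. EXPA8 fell by 1.80 on the log2 scale in WT, against -0.56 (SE 0.17, adjusted p = 0.0891) in rb10 without that array.

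In 7 members both light effects were called and went in opposite directions. Apart from PUB54, AT5G46710 (1.07 in WT, -0.73 in rb10), AT4G20320 (0.79 and -0.49) and AT5G55970 (0.51 and -0.57) rose in WT and fell in rb10. AT3G23740 (-0.45 and 0.45) and AT5G58900 (-0.51 and 0.47) did the reverse. AT4G17680 read 6.61, 6.35 and 6.50 in dark WT, 5.05, 5.23 and 5.15 in illuminated WT, 7.66, 7.42 and 6.27 in dark rb10 and 8.35, 8.10 and 8.07 in illuminated rb10. The WT light arrays were the lowest and the rb10 light arrays the highest, the interaction was 2.40 (SE 0.40, adjusted p = 0.0116), and without the doubted array it was 1.98 (SE 0.18, adjusted p = 0.00117). The light effect was -1.34 (SE 0.28, adjusted p = 0.0142) in WT and 1.05 (SE 0.28, adjusted p = 0.0486) in rb10. Without the doubted array the rb10 effect was smaller, 0.63 (SE 0.13, adjusted p = 0.0215). The doubted array stood near the WT dark arrays. Without that array AT4G20320 and AT5G58900 had no called rb10 effect, and 11 members were classed as reversed.

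Responses gained in rb10 included 54 falls. Of 8 measured Aux/IAA repressors of auxin responses 2 had a lower interaction. IAA20 read 8.90, 9.14 and 9.17 in dark WT, 9.27, 8.76 and 8.43 in illuminated WT, 9.39, 9.47 and 9.29 in dark rb10 and 7.25, 6.75 and 6.09 in illuminated rb10. Its fall was called in rb10 alone, where the light arrays lay below every other array, with light effects of -0.24 (SE 0.27, adjusted p = 0.71) in WT and -2.69 (SE 0.27, adjusted p = 0.000153) in rb10. The interaction was -2.45 (SE 0.38, adjusted p = 0.00915), or -2.49 (SE 0.42, adjusted p = 0.0172) without the doubted array. IAA29, which shade and PIF factors promote, as they do 2 more measured genes, read 9.22, 9.13 and 9.56 in dark WT, 7.93, 7.54 and 7.42 in illuminated WT, 9.40, 9.58 and 9.68 in dark rb10 and 6.15, 6.06 and 6.14 in illuminated rb10. It fell in both genotypes, and further in rb10 (-3.44) than in WT (-1.67), an interaction of -1.77 (SE 0.22, adjusted p = 0.00285). Of the other shade genes FHL, which helps bring phytochrome A into the nucleus, fell in rb10 (-0.78, SE 0.12, adjusted p = 0.00229) with an interaction of -0.39 (SE 0.17, adjusted p = 0.36).

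ARL, an organ growth gene related to ARGOS, gave -1.97 (SE 0.25, adjusted p = 0.00302), with a light effect of -1.65 (SE 0.18, adjusted p = 0.00022) in rb10, and was named after its values were seen. HAT2, a homeodomain factor of shade responses, was kept, with light effects of -0.91 and -0.75 and an interaction of 0.15 (SE 0.21, adjusted p = 0.831). The auxin-induced growth gene AT3G53250, of the SAUR family, read 8.02, 8.75 and 8.60 in dark WT, 5.34, 6.55 and 5.43 in illuminated WT, 9.45, 9.43 and 9.03 in dark rb10 and 6.95, 6.57 and 6.34 in illuminated rb10. Light arrays lay below dark arrays in both genotypes, by 2.69 and 2.68 log2 units, although its interval, -0.98 to 0.98 with 12 arrays, was -1.2 to 0.93 without the doubted array. None of 5 measured SAUR genes, out of 71 listed, was called in the interaction (limma, 0 at an unadjusted p under 0.05, and 0 by the ordinary linear model).

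AT5G18600, of the CC-type glutaredoxins, small redox proteins found in plants, read 9.52, 9.59 and 9.80 in dark WT, 9.66, 9.11 and 9.04 in illuminated WT, 9.70, 9.79 and 9.80 in dark rb10 and 7.58, 7.32 and 7.05 in illuminated rb10. Only the rb10 light arrays were low, with an interaction of -2.08 (SE 0.25, adjusted p = 0.00272). Of the other 17 measured genes of this family none was called with 12 arrays, and AT3G62950 passed without the doubted array (-1.54, SE 0.23, adjusted p = 0.0103, where 12 arrays gave -2.25, SE 0.65, adjusted p = 0.133). WRKY22, a transcription factor of defence and of leaf senescence in the dark, read 10.57, 10.76 and 10.76 in dark WT, 10.94, 10.82 and 10.95 in illuminated WT, 10.26, 10.34 and 10.60 in dark rb10 and 8.70, 9.06 and 8.51 in illuminated rb10. It fell in rb10 (-1.64, SE 0.15, adjusted p = 6.86e-05) with no called change in WT, and the interaction was -1.85 (SE 0.21, adjusted p = 0.0019).

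Of 14 measured S40-type genes, named for a senescence protein, 2 were gained falls as well. Over all members 1.69% had a lower interaction and 0.526% a higher one. AT2G28400 read 9.16, 9.45 and 9.30 in dark WT, 9.23, 9.25 and 9.55 in illuminated WT, 9.19, 9.36 and 9.28 in dark rb10 and 7.52, 7.82 and 7.72 in illuminated rb10. Only illuminated rb10 was low, with an interaction of -1.63 (SE 0.18, adjusted p = 0.00188). AT5G60680 gave -1.33 (SE 0.17, adjusted p = 0.00288), with light effects of -0.41 in WT and -1.74 in rb10. In the other direction AT1G11700 was a gained rise (1.15, SE 0.24, adjusted p = 0.0373), lost without the doubted array, with equal array medians and after a second quantile normalization. UGT76C2, which glucosylates cytokinins, was a gained fall (-0.92, SE 0.18, adjusted p = 0.029), and UGT88A1 a gained rise (0.66, SE 0.15, adjusted p = 0.0481), called in 5 and 1 of the 12 fits leaving out 1 array.

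Of 40 listed genes of sugar starvation and amino acid breakdown 8 were measured. Of these, 2 fell in WT and 6 in rb10, and the interaction was lower for 2. Over all members 2.24% fell in WT, 3.73% fell in rb10 and 1.69% had a lower interaction. AT1G21400, a subunit of the complex that breaks down branched-chain amino acids, read 12.62, 12.47 and 12.54 in dark WT, 12.30, 12.38 and 12.31 in illuminated WT, 12.26, 12.24 and 12.45 in dark rb10 and 11.02, 10.79 and 11.20 in illuminated rb10. Its rb10 light arrays stood below all other arrays, with an interaction of -1.10 (SE 0.17, adjusted p = 0.00753). MCCB, of leucine breakdown, read 12.84, 12.74 and 12.71 in dark WT, 12.63, 12.65 and 12.55 in illuminated WT, 12.49, 12.42 and 12.79 in dark rb10 and 11.71, 11.51 and 11.23 in illuminated rb10, an interaction of -0.93 (SE 0.19, adjusted p = 0.0338) that was not called without the doubted array (-0.82, SE 0.18, adjusted p = 0.0517). In both genes illuminated rb10 lay below all other groups. PPDK, which links pyruvate to gluconeogenesis, read 11.99, 11.90 and 11.91 in dark WT, 11.95, 11.89 and 11.79 in illuminated WT, 11.57, 11.49 and 11.84 in dark rb10 and 10.79, 10.67 and 10.81 in illuminated rb10, an interaction of -0.83 (SE 0.16, adjusted p = 0.0212), called in 7 of 12 fits leaving out 1 array.

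PPDK was the 1 gene called of 5 measured genes of seed oil use and gluconeogenesis, out of 23 listed. By size, AT5G05965 (-3.19, SE 0.48, adjusted p = 0.00751) and AT1G15010 (-2.57, SE 0.56, adjusted p = 0.042), of no function listed here, were the largest gained falls, named after their values were seen. AT5G05965 read 10.04, 10.22 and 10.53 in dark WT, 9.55, 9.54 and 9.67 in illuminated WT, 8.56, 8.75 and 10.18 in dark rb10 and 5.30, 5.13 and 5.48 in illuminated rb10. It was lowest on the rb10 light arrays, the first pair of rb10 dark arrays also lay below WT, and without the doubted array its WT fall was called too, and it then counted as stronger.

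Gained and stronger rises were 46 and 10. AT1G58460, the largest, read 4.15, 4.71 and 3.98 in dark WT, 4.17, 4.39 and 3.77 in illuminated WT, 4.16, 4.36 and 3.76 in dark rb10 and 7.17, 6.85 and 6.48 in illuminated rb10. It was raised on the rb10 light arrays, with light effects of -0.17 (SE 0.25, adjusted p = 0.79) in WT and 2.74 (SE 0.25, adjusted p = 7.37e-05) in rb10 and an interaction of 2.91 (SE 0.35, adjusted p = 0.00272). AT5G55620 (2.02, SE 0.23, adjusted p = 0.0019) and AT3G44020 (2.16, SE 0.32, adjusted p = 0.00735) showed the same form. AT3G50300 gave 2.08 (SE 0.43, adjusted p = 0.0333) and was called in 4 of 12 fits leaving out 1 array. No function is given here for these 4 genes.

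AT4G17670, of the FLZ adaptors that bind the energy sensor kinase SnRK1, read 2.31, 2.78 and 2.57 in dark WT, 2.74, 3.14 and 2.87 in illuminated WT, 3.36, 3.13 and 2.65 in dark rb10 and 5.63, 5.35 and 5.80 in illuminated rb10. The rb10 light arrays were the highest, with an interaction of 2.18 (SE 0.29, adjusted p = 0.00361), and the next gene in the annotation is AT4G17680, described above. A second FLZ gene, AT1G74940, had a weaker fall (0.89, SE 0.20, adjusted p = 0.0435) that was not called without the doubted array, and AT5G20700, named after its values were seen, passed without it (0.66, SE 0.14, adjusted p = 0.0411). The other 10 of 13 did not pass in either fit.

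Light regulators that could be measured were few. Of 36 listed light signalling genes 3 were measured, and HY5 was not among them. HYH read 5.69, 6.02 and 6.56 in dark WT, 8.88, 8.80 and 8.94 in illuminated WT, 6.15, 6.24 and 5.93 in dark rb10 and 8.98, 9.09 and 8.97 in illuminated rb10. It rose by 2.79 in WT and 2.90 in rb10, and its interaction of 0.12 (SE 0.26, adjusted p = 0.909) had an interval from -0.46 to 0.69. AT4G29930, of the bHLH transcription factors, read 4.07, 4.38 and 4.01 in dark WT, 5.68, 5.88 and 5.50 in illuminated WT, 4.37, 5.18 and 3.73 in dark rb10 and 7.98, 8.24 and 8.27 in illuminated rb10. It rose in both and further in rb10, an interaction of 2.21 (SE 0.41, adjusted p = 0.0194), called in 7 of 12 fits leaving out 1 array and at 1.86 (SE 0.31, adjusted p = 0.0155) without the doubted one.

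AT3G52740, an inhibitor of cryptochromes, read 4.54, 4.89 and 4.1 in dark WT, 5.32, 5.29 and 5.87 in illuminated WT, 3.99, 3.90 and 4.25 in dark rb10 and 6.27, 6.97 and 6.96 in illuminated rb10. The rise was 0.98 in WT and 2.69 in rb10, an interaction of 1.70 (SE 0.35, adjusted p = 0.0332) that was called in 4 of 12 fits leaving out 1 array and not after a second quantile normalization. The ordinary linear model did not call this interaction either. GI, a clock component of flowering and light signalling, read 10.81, 10.69 and 10.63 in dark WT, 11.31, 11.45 and 11.42 in illuminated WT, 10.46, 10.43 and 10.57 in dark rb10 and 11.70, 11.80 and 11.94 in illuminated rb10. Its rb10 light arrays stood above the WT light arrays and its rb10 dark arrays below the WT dark arrays, an interaction of 0.64 (SE 0.14, adjusted p = 0.0454), called in 1 of 12 such fits and not with equal array medians. Of the other measured clock genes, COR27 had -0.62 (SE 0.15, adjusted p = 0.0647) and AT4G33980 -0.68 (SE 0.21, adjusted p = 0.176).

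NdhN and CRR42, a subunit and an assembly factor of the plastid NDH complex, were gained rises with 12 arrays. NdhN read 6.74, 6.43 and 7.12 in dark WT, 6.60, 6.51 and 6.55 in illuminated WT, 7.70, 7.70 and 7.42 in dark rb10 and 8.82, 8.94 and 8.36 in illuminated rb10. Its rb10 light arrays were the highest, and the doubted array lay at the lower end of rb10 in the dark. The interactions were 1.31 (SE 0.27, adjusted p = 0.0313) and 0.86 (SE 0.18, adjusted p = 0.0385), both lost without the doubted array (1.21, SE 0.28, adjusted p = 0.0629 and 0.78, SE 0.18, adjusted p = 0.067). The other two measured genes of that complex did not pass, and under equal array medians or a second quantile normalization 1 of the 4 did. None of the 4 passed in the ordinary linear model.

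**Figure D3:**
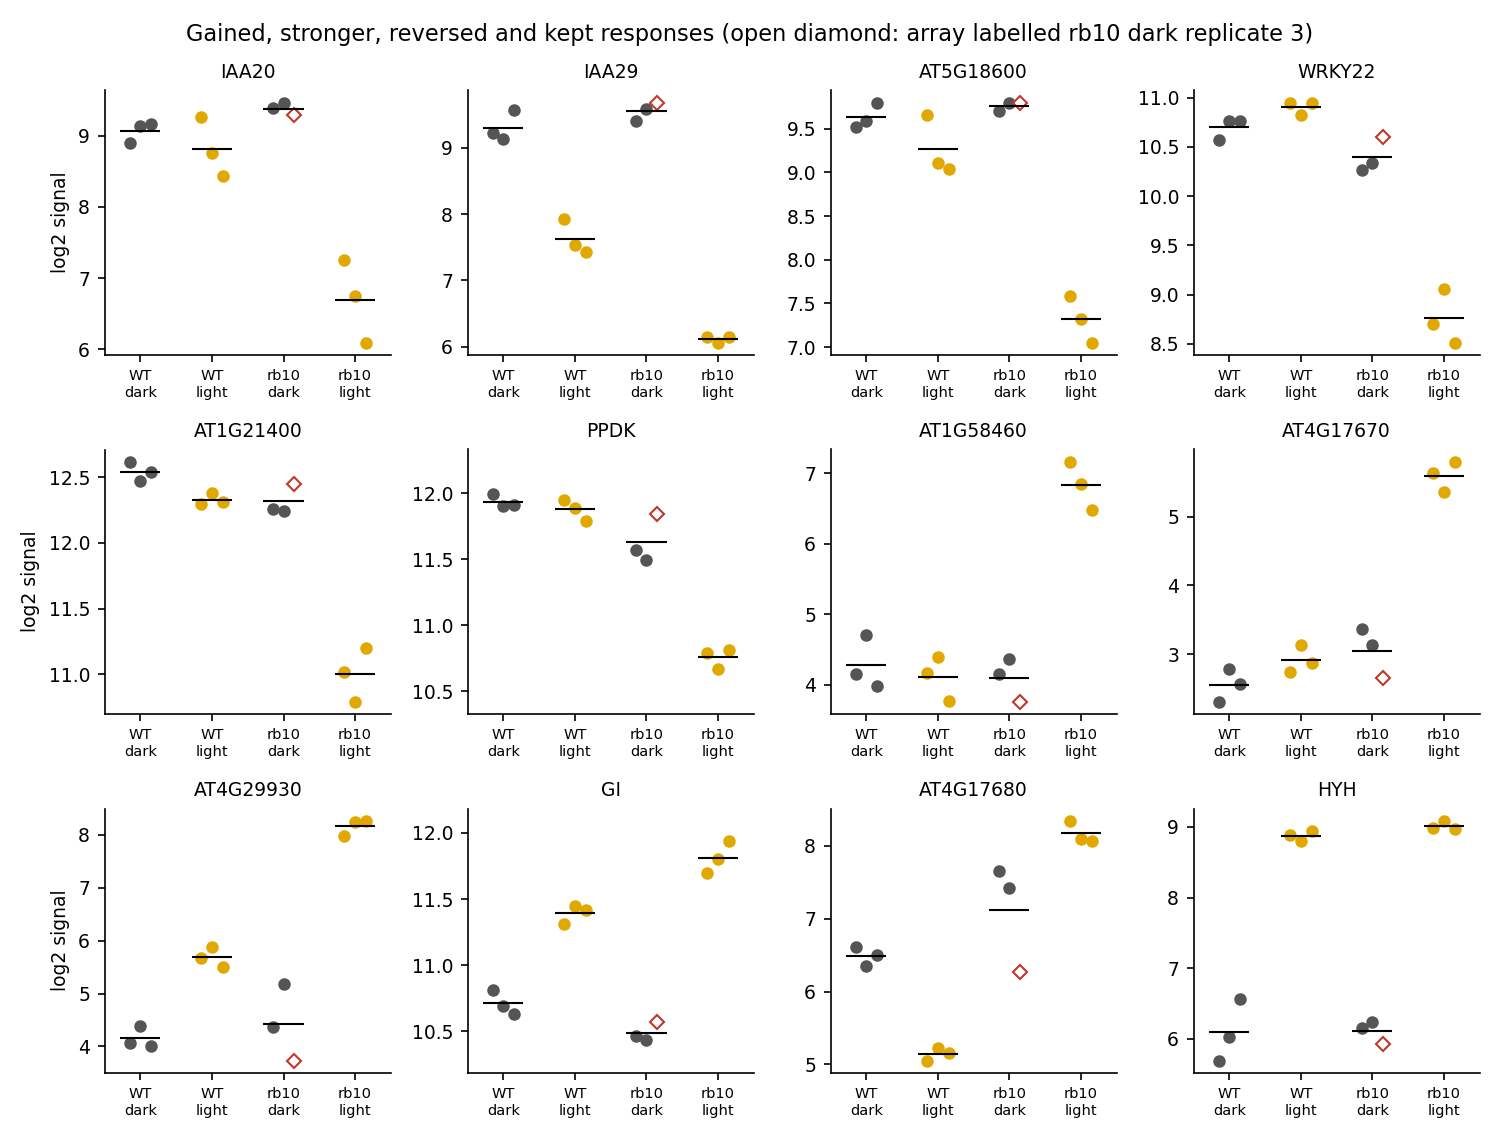
Log2 signal (y axis) on each of the 12 arrays for 12 genes, by group (x axis); points are arrays, bars are group means, and the open diamond is the array labelled rb10 dark replicate 3. IAA20, AT5G18600, WRKY22, AT1G21400 and PPDK are lowest on the rb10 light arrays. In WRKY22, AT1G21400 and PPDK rb10 dark replicates 1 and 2 also lie below every WT array. AT1G58460 and AT4G17670 are highest on the rb10 light arrays, AT4G17680 goes in opposite directions, and HYH rises in both genotypes.

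The 151 kept rises and 89 kept falls had median light effects of 0.91 and -0.73 in WT, and of 0.83 and -0.84 in rb10. The limit of 1 log2 unit is wider than these medians, so kept responses need not be equal in size. With 12 arrays AT1G02410 was kept with rises of 1.00 in WT and 0.48 in rb10, and AT2G33255 with 0.43 and 1.02. Both were named after their values were seen. Of the 240, the interval of 31 left out 0, so that these intervals hold differences of 1 sign alone. Besides HYH, the largest kept rises by the mean of both genotypes were AT2G42975 (2.48 in WT, 2.46 in rb10), AT3G02910 (2.42 in both), CYTC-2, a cytochrome c of the respiratory chain (2.25 and 1.89), and AT3G09440. AT3G02910 read 9.28, 9.80 and 9.67 in dark WT, 11.88, 11.95 and 12.18 in illuminated WT, 10.03, 9.99 and 9.74 in dark rb10 and 12.23, 12.21 and 12.58 in illuminated rb10. Its light arrays stood above its dark arrays in either genotype, with no overlap. CYTC-2 read 8.97, 9.18 and 9.59 in dark WT, 11.62, 11.41 and 11.48 in illuminated WT, 9.60, 9.79 and 9.43 in dark rb10 and 11.51, 11.55 and 11.44 in illuminated rb10. It rose without overlap in both genotypes, with an interaction of -0.37 (SE 0.22, adjusted p = 0.542).

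By the mean of both genotypes, the largest kept falls were RTFL13, of a family of small peptides that limit cell proliferation (-2.93 in WT, -2.90 in rb10), AT3G53250, AT4G21745 (-1.64 and -1.59), AT5G44680, of the DNA glycosylases (-1.55 and -1.44), and AT1G23050 (-1.21 and -1.76). RTFL13 read 8.63, 8.47 and 8.53 in dark WT, 5.47, 5.52 and 5.85 in illuminated WT, 8.09, 8.65 and 8.32 in dark rb10 and 5.14, 4.94 and 6.27 in illuminated rb10. Light arrays lay far below dark arrays in both genotypes, but its interval passed 1 log2 unit without the doubted array. AT1G23050 met the definition although its interval, -0.86 to -0.24, left out 0.

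Several functions had no called interaction. Over all members 2.22% were called, so the absence of calls in lists of these sizes lies near that share. Of 38 cytosolic ribosomal protein genes, 12 ribosome biogenesis genes, 4 flavonoid genes and 4 abscisic acid genes, none was called (limma, none at an unadjusted p under 0.05, and none by the ordinary linear model). Interactions ran from -0.81 to 0.38 for the ribosomal proteins and from -0.13 to 0.39 for ribosome biogenesis. Of 17 autophagy genes none was called, with 1 at an unadjusted p under 0.05 and none by the ordinary linear model. That gene, ATG8E, which forms autophagosome membranes, gave -0.73 (SE 0.22, adjusted p = 0.162), with light effects in rb10 of -0.68 (SE 0.16, adjusted p = 0.0247) and, without the doubted array, -0.50 (SE 0.13, adjusted p = 0.05), just inside the threshold. Among 11 tau-class glutathione transferases none was called, with 1 at an unadjusted p under 0.05 and none by the ordinary linear model. The ribosomal protein, ribosome biogenesis and autophagy lists had no called light effect in WT and at most 1 in rb10, so they held hardly any response to compare. The flavonoid and abscisic acid lists had 20 and 17 entries, most of them not measured.

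For greening, 10 of 32 listed chlorophyll synthesis genes and 9 of 51 listed photosynthesis genes were measured. None of these was called in the interaction with 12 arrays, where 2.22% of all members were. The plastid NDH genes described above form a separate list. Of 9 photosynthesis genes none passed at an unadjusted p under 0.05 or in the ordinary linear model. RCA, Rubisco activase, was kept, with rises of 0.51 in WT and 0.72 in rb10. LHB1B2, a light-harvesting protein, read 10.90, 10.59 and 11.22 in dark WT, 11.07, 10.91 and 11.19 in illuminated WT, 9.40, 10.23 and 11.17 in dark rb10 and 11.07, 11.55 and 11.27 in illuminated rb10. Its first 2 rb10 dark arrays lay below the others, and the rb10 rise was 1.03 (SE 0.35, adjusted p = 0.12) with 12 arrays and 1.48 (SE 0.26, adjusted p = 0.00758) without the doubted one, while the interaction was not called in either fit (0.88, SE 0.50, adjusted p = 0.517 and 1.33, SE 0.35, adjusted p = 0.101).

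Of 10 chlorophyll synthesis genes none passed with 12 arrays, with 2 at an unadjusted p under 0.05 and none by the ordinary linear model. HEMA2, of the first committed step, had the smallest p of them (-0.63, SE 0.17, adjusted p = 0.103). PORB, the light-driven protochlorophyllide reductase, was named after its values were seen. It read 10.69, 10.25 and 10.64 in dark WT, 10.30, 10.01 and 10.14 in illuminated WT, 11.52, 11.48 and 10.60 in dark rb10 and 10.15, 9.83 and 9.82 in illuminated rb10. Without the doubted array, which lay below the other 2 of its group, its rb10 fall was -1.57 (SE 0.16, adjusted p = 0.000381) and its interaction -1.19 (SE 0.22, adjusted p = 0.0239), where 12 arrays gave -0.89 (SE 0.33, adjusted p = 0.27). None of 6 reference genes, such as PEX4 (-0.03, SE 0.17, adjusted p = 0.97), was called, and none had an unadjusted p under 0.05 or passed in the ordinary linear model.

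**Figure D4:**
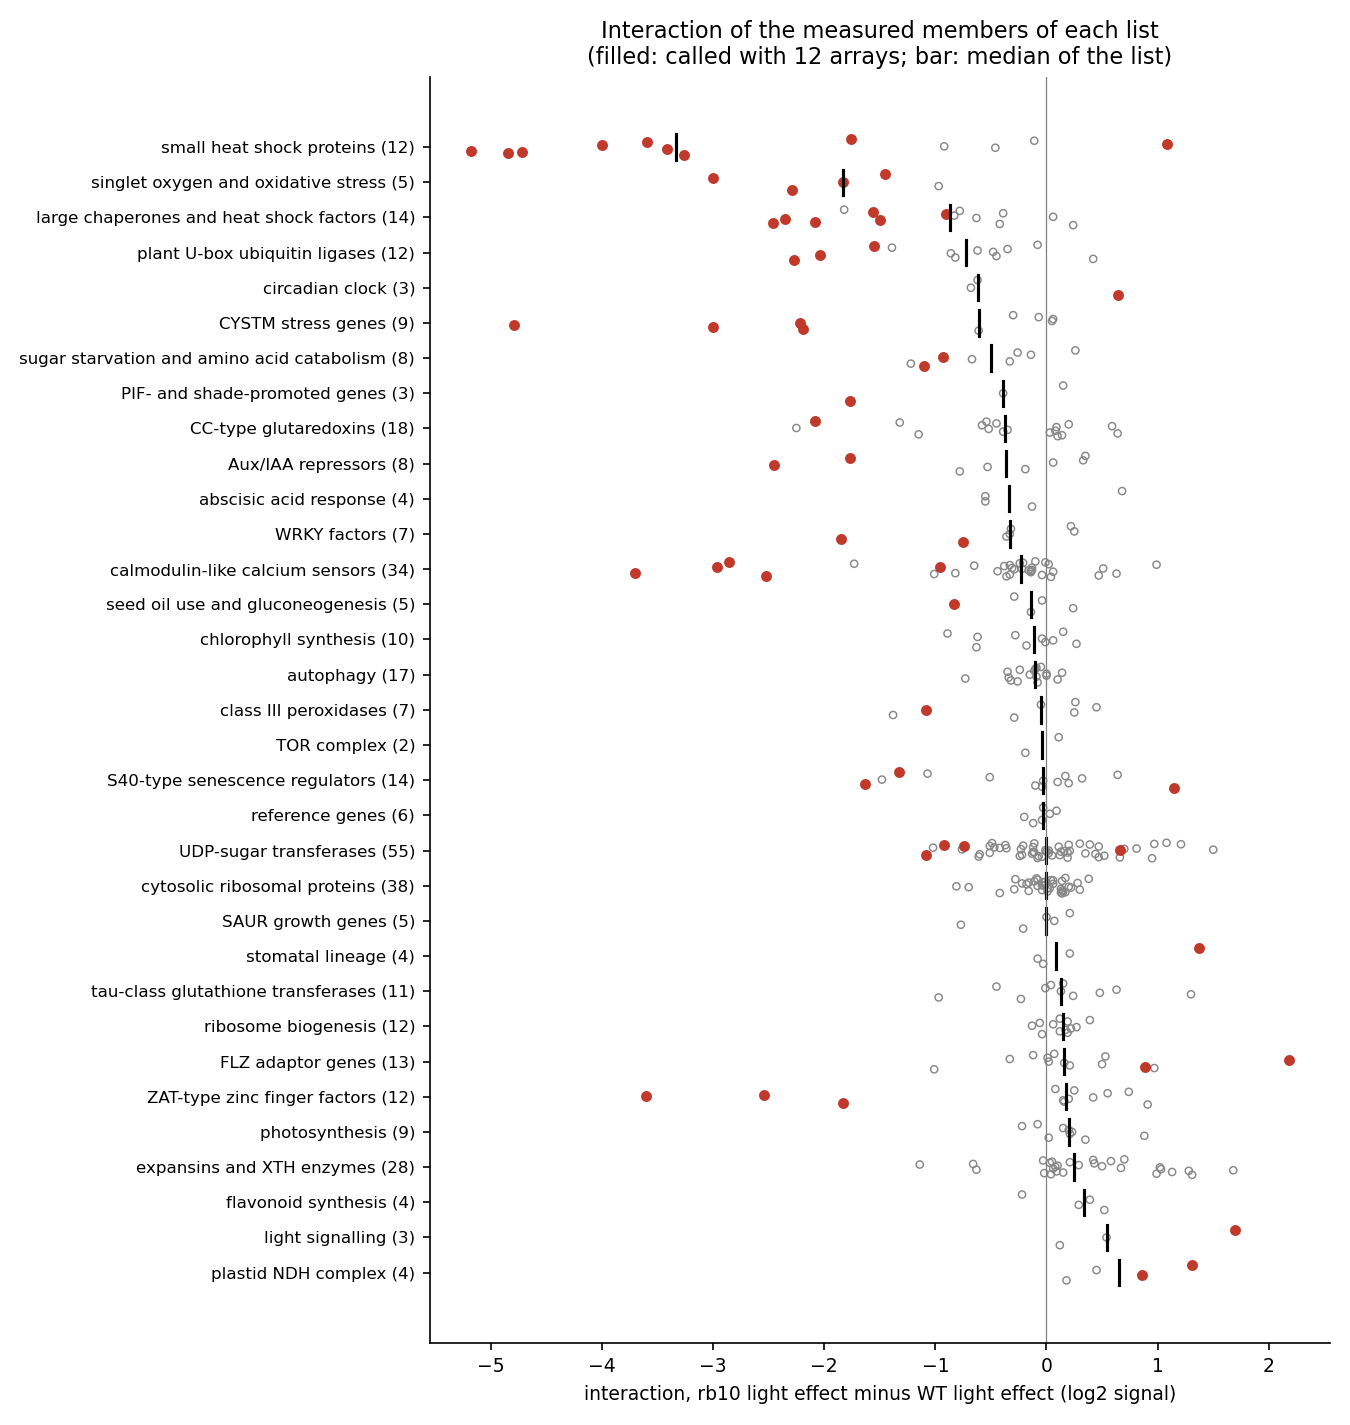
Interaction in log2 signal (x axis) of every measured member of each of 33 lists (y axis, number measured in brackets) with 12 arrays; filled points are called, open points are not, and the bar is the median of the list. Calls at the far left belong to small heat shock, CYSTM, calcium sensor and ZAT genes, whereas the ribosomal, autophagy and photosynthesis lists hold open points alone, with medians near 0.

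Among the 371 calls the interaction moved by a median of 0.08 log2 units, and at most by 0.57, when the array labelled rb10 dark replicate 3 was left out. These members were selected by the fit that holds that array, so the shifts speak for them alone. AT3G62950, described above and not called with 12 arrays, moved further. The stress lists kept their counts of lower calls to within 1 member without it (8 and 8 for small heat shock proteins, 6 and 6 for large chaperones, 4 and 3 for singlet oxygen and for CYSTM genes, 5 and 6 for calcium sensors, 3 and 3 for ZAT and for U-box genes). Calls lost or gained with it included those of SPCH, the NDH genes, MCCB, WRKY6, PORB and the cell wall enzymes.

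**Figure D5:**
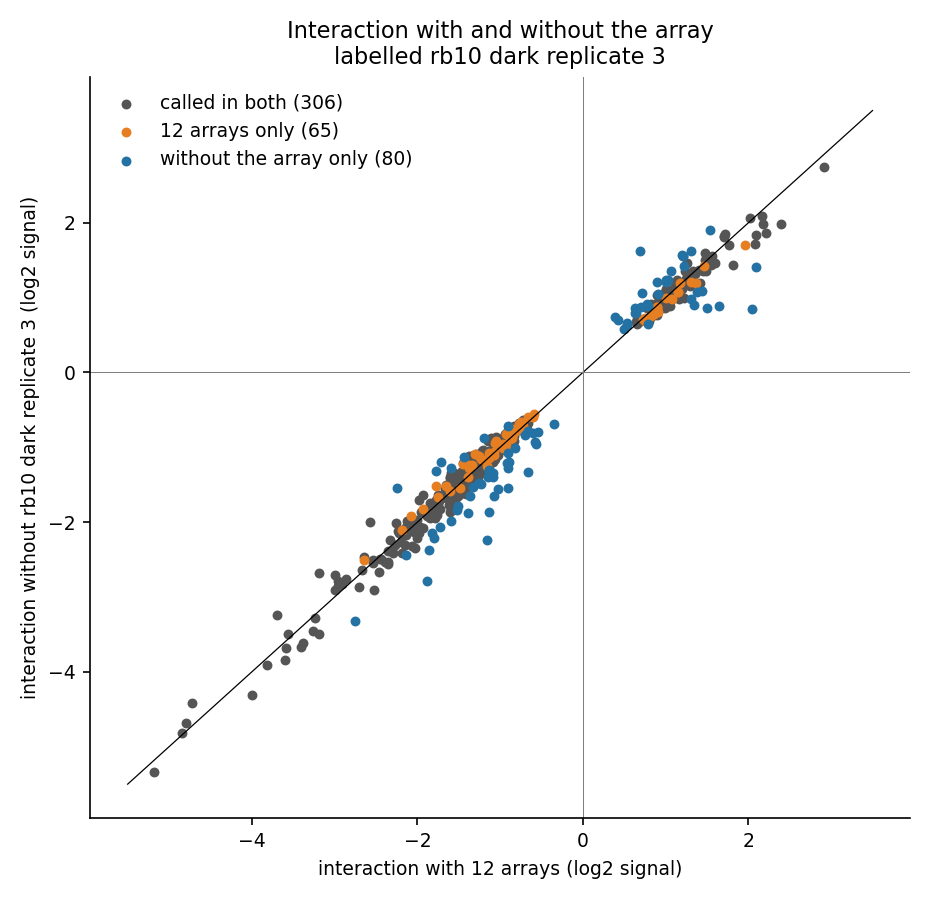
Interaction in log2 signal with all 12 arrays (x axis) against the same without rb10 dark replicate 3 (y axis) for members called in either fit; colours mark where each was called and the line is equality. The 306 members called in both, the 65 called with 12 arrays only and the 80 called without that array only all keep their sign.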

How the data were processed

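Pooled whole seedlings were measured on 12 arrays, 3 for each genotype and light condition. The authors deposited a log2 signal for every probe set and array. Per the submitters' processing notes, RMA and GCRMA are named, methods that correct background, normalize between arrays and summarise probes. Which gave these values, versions and the genome build are not given in the sources used here. Arrays have no read depth, and precision is limited by their number.

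Of 38408 probe sets, 16722 were paired with 1 gene by accession or locus code (names from RefSeq, TAIR10.1), 759 with several and 20927 with none. A single model with 4 group means was fitted to the 17481 probe sets with at least 1 gene, without a filter on signal, by lmFit, contrasts.fit and eBayes (limma 3.58.1, R 4.3.3). P-values were adjusted by Benjamini-Hochberg over all of them within each contrast, and a call is an adjusted p under 0.05. SEs are those of the fit, with n = 3 arrays per group. The fit was also run on simulated arrays with independent noise, at the spread found without rb10 dark replicate 3. Those held no outlying array, so that run cannot speak for the effect of such an array.

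The 33 lists held 868 entries, of which 396 were measured. Family members found by gene name were searched among measured genes alone. For such lists the entries are thus no count of the whole family. Membership by locus code and the roles given come from general knowledge and from descriptions in the annotation table. In lists a gene with several probe sets was read from the brightest one on average. Members, lists and tests were chosen with earlier results of these data known. The rule for named genes took the 8 largest called interactions in each direction with 12 arrays and without the doubted array (labelled rb10 dark replicate 3), the 5 largest kept rises and falls, up to 6 called members per list or else its member of smallest p, and the RAPTOR and reference genes. Besides those marked in the text, AT1G59860, AT2G19310, Cpn60beta2, HAT2, FHL, COR27, AT4G33980, AT3G62950 and 5 of the 7 reversed genes were also named after their values were seen.

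Alternatives were leaving out each array in turn, a replicate block, equal array medians, a second quantile normalization, leaving out the lowest 25% of probe sets, testing every probe set or single-gene ones alone, a trended and robust prior, array weights, a fold of 2 as well, and an ordinary equal-variance linear model. Figures were drawn with matplotlib 3.10.9. No array was left out of the values given as 12 arrays.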

Additional observations from a re-analysis of the deposited data

Results flagged for a closer look

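Each result here is a light effect that differed between WT and rb10 by the test of the interaction itself (limma, adjusted p under 0.05, 3 arrays per group). In all, 88 members were higher and 283 lower.

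The largest higher interactions were 2.91 for AT1G58460, 2.40 for AT4G17680, 2.21 for AT4G29930, 2.18 for AT4G17670, 2.16 for AT3G44020, 2.09 for AT1G76240, 2.08 for AT3G50300 and 2.02 for AT5G55620. Of these, AT4G29930 and AT3G50300 were not called in every fit that leaves out an array. The largest lower ones were -5.18 for AT1G54050, -4.84 for AT1G52560, -4.79 for AT2G32200, -4.72 for AT1G53540, -4.0 for ATHSP22.0, -3.82 for AT1G59865, -3.70 for CML38 and -3.60 for AT3G46080. All 8 of these held in each of the 12 fits that leave out an array.

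Genes with called effects of opposite sign were AT3G23740 at 0.89, AT5G58900 at 0.98, AT4G20320 at -1.28, AT5G46710 at -1.79, AT5G55970 at -1.07 and PUB54 at -2.27, beside AT4G17680 above. In AT4G17680 the array labelled rb10 dark replicate 3 read 6.27, near the WT dark arrays, and its part in the result was not tested beyond the fit without it, which gave 1.98 (SE 0.18, adjusted p = 0.00117).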

How the results depend on the processing

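No called interaction of a named gene changed direction under the alternatives run, while some uncalled ones near 0, HYH among them, did. Of the 63 called named genes, 40 stayed called in all 12 fits that leave out an array and 23 were lost in at least 1. Over those fits the counts ran from 35 to 102 (higher), 169 to 284 (lower), 807 to 1471 (light in WT), 753 to 1108 (light in rb10), 143 to 252 (weaker), 53 to 95 (gained), 5 to 29 (stronger) and 155 to 294 (kept). Asking for a fold of 2 as well left 56 higher, 544 light effects in WT, 474 in rb10, 3 stronger and 55 kept. The ordinary linear model left 57 higher and 65 gained, with 264 interaction calls in all. The stronger class, 18 members, moved to 30 without the lowest 25% of probe sets, 11 with every probe set tested, 40 with a trended and robust prior and 34 with array weights. The causes of these moves were not tested.

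Setting arrays to equal medians moved the median interaction of all members from 0.01 to -0.06 and gave 62 higher and 316 lower calls, and a second quantile normalization gave 74 and 292. The median of the stomatal lineage list went from 0.09 to -0.02, and that of the S40-type genes from -0.03 to 0.01, after quantile normalization.

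The replicate numbers did not pair the samples: deviations of same-numbered arrays correlated at -0.04 to 0.07 over 18 pairs, and other pairs at -0.06 to 0.05. With the replicate block there were 62 higher and 236 lower interactions, 11 stronger members, and 12 named calls fewer and 1 more.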

Other observations

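Among the 20927 probe sets paired with no gene, tested together with the rest, 303 were called in the interaction (1.45%), 88 higher and 215 lower. Their genes are not named here.

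Called members also lay beside each other in the annotation order. AT2G22880, a weaker rise, lies next to AT2G22890, a gained fall. AT5G22520 and AT5G22530 were both called, as were AT1G59860 and AT1G59865. Adjacent genes can share probes or transcripts, and the part of this in the values was not tested.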
